A study of Homo sapiens with 9 samples.

Results

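The histone genes described here are 8 genes for variant histones whose mRNAs carry a poly(A) tail: H2AFZ, H2AFX, H2AFV, H2AFY, H2AFY2, H3F3A, H3F3B and H1FX. RefSeq (GRCh38.p14) lists them today as H2AZ1, H2AX, H2AZ2, MACROH2A1, MACROH2A2, H3-3A, H3-3B and H1-10. They were taken as all non-control probes that the array files assign to these gene names, which gave 8 of the 32383 gene names on the array, with 12 of its 42405 probes. The replication-dependent histone genes, 68 genes with 80 probes, served as the background. RNA came from NT2 (NTERA-2) cells, a human embryonal carcinoma line that enters the neural lineage under retinoic acid. All cultures received 10 µM retinoic acid for 96 h, either alone (control), with 1 µM paraoxon or with 5 µM mipafox. Both are organophosphorus compounds that inhibit esterases, and mipafox is the one known for delayed neuropathy. Each treatment had 3 one-color arrays, lettered A, B and C. The labels call them biological replicates and the study's methods call them technical, so p-values measure the spread between these arrays, which may be technical. The concentrations of the compounds differed, so their values are set side by side here.

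A histone variant is a form of a core or linker histone that is made outside the bulk supply of S phase. The replication-dependent genes produce mRNAs that end in a conserved stem-loop in place of a poly(A) tail, are abundant while DNA is copied and are degraded afterwards. The variant genes described here produce polyadenylated mRNAs throughout the cell cycle, and H2AFX is known to produce both kinds of 3′ end. Labelling of RNA from an oligo-dT primer, the usual start of one-color amplification, favors mRNAs with a poly(A) tail.

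The arrays carried 60-base probes, and the stretches below show what those for H3.3, H1.X, H2A.X and a replication-dependent gene detect. Positions are those of the array files (hg19). The first pair, from H3F3A, lies in the coding sequence at chr1:226253364-226253423 and chr1:226259067-226259126, both on the plus strand. Capitals in the first mark a run of 19 bases shared with the HIST1H3A probe, and in the second a run of 17 bases shared with the HIST1H3J probe. Longer runs were shared with other probes and are not marked. The second H3F3A probe shares 23 bases with a probe on chromosome 5 that has no gene name. The third H3F3A probe, not printed here, shares up to 24 bases with lincRNA probes.
H3F3A A_23_P23141: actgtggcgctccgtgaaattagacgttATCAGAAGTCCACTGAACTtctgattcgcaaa
H3F3A A_24_P105298: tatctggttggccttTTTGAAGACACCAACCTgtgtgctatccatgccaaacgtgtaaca
The brighter H3F3B probe (chr17:73774912-73774971, minus strand) and the H1FX probe (chr3:129034466-129034525, minus strand) are coding too, and neither shares a run of 15 bases or more with a probe of another gene.
H3F3B A_24_P82419: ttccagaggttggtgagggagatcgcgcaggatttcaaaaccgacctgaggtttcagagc
H1FX A_23_P96087: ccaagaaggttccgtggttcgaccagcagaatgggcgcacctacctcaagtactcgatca
The last pair contrasts the 3′ ends. The H2AFX stretch (chr11:118964591-118964620, minus strand) holds ATTAAA, a poly(A) signal, in capitals, and the HIST1H3H stretch (chr6:27778285-27778314, plus strand) holds CTTTTCAG, the core of the histone stem-loop, in capitals.
H2AFX A_24_P38895: tggactaattttATTAAAggattgtttttt
HIST1H3H A_33_P3404989: atacccaaaggctCTTTTCAGagccaccca

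The core CTTTTNAG stood in the sense direction of 9 of the 80 replication-dependent probes, in 0 of the 12 variant probes and in 0.722% of all probes on the array. In the reverse complement it stood in 2, 0 and 0.663%. A poly(A) hexamer, AATAAA or ATTAAA, stood in 1 of the 12 variant probes (H2AFX), in 5 of the 80 replication-dependent probes and in 10.1% of all probes, against 2, 1 and 6.32% for the reverse complement. All 3 H3F3A probes were also listed in the files for the pseudogene transcript H3P6, and the brighter H3F3B probe for the retrocopy H3-5, so their signals may include those transcripts. The H3F3A pair printed above was also listed for a further transcript that could not be matched to a current gene. The 2 H2AFV probes were listed for different transcripts of the gene: the brighter one for 4 transcripts and the dimmer one for a single other transcript.

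The signal level is given as log2 of the background-subtracted signal minus the array's own 75th percentile, so a value of 1 is a signal at 2 times that percentile. All 12 variant probes were well above background on all 9 arrays, and none was saturated. Of the 80 replication-dependent probes, 74 could be tested. The arrays' 75th percentiles ran from 802 to 1590 and the share of probes well above background from 65.7% to 73.6%. The control arrays and mipafox A were on slide 1, and the paraoxon arrays with mipafox B and C on slide 2, so slide and treatment cannot be told apart for paraoxon against control except through the mipafox arrays. With slide as a block, mipafox against control is the difference of mipafox A alone from the controls. Paraoxon against control with this block also rests on mipafox A, the only treated array on slide 1. All 11 embryonal carcinoma marker genes on the array, 6 of 7 neural progenitor, 7 of 9 neuronal and 9 of 10 retinoic acid response genes were above background on every array, as were 4 of 6 astrocyte, 2 of 5 endoderm and 3 of 5 fibroblast genes. In such bulk RNA, fewer cells of a type and less RNA per cell cannot be told apart.

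**Figure D1:**
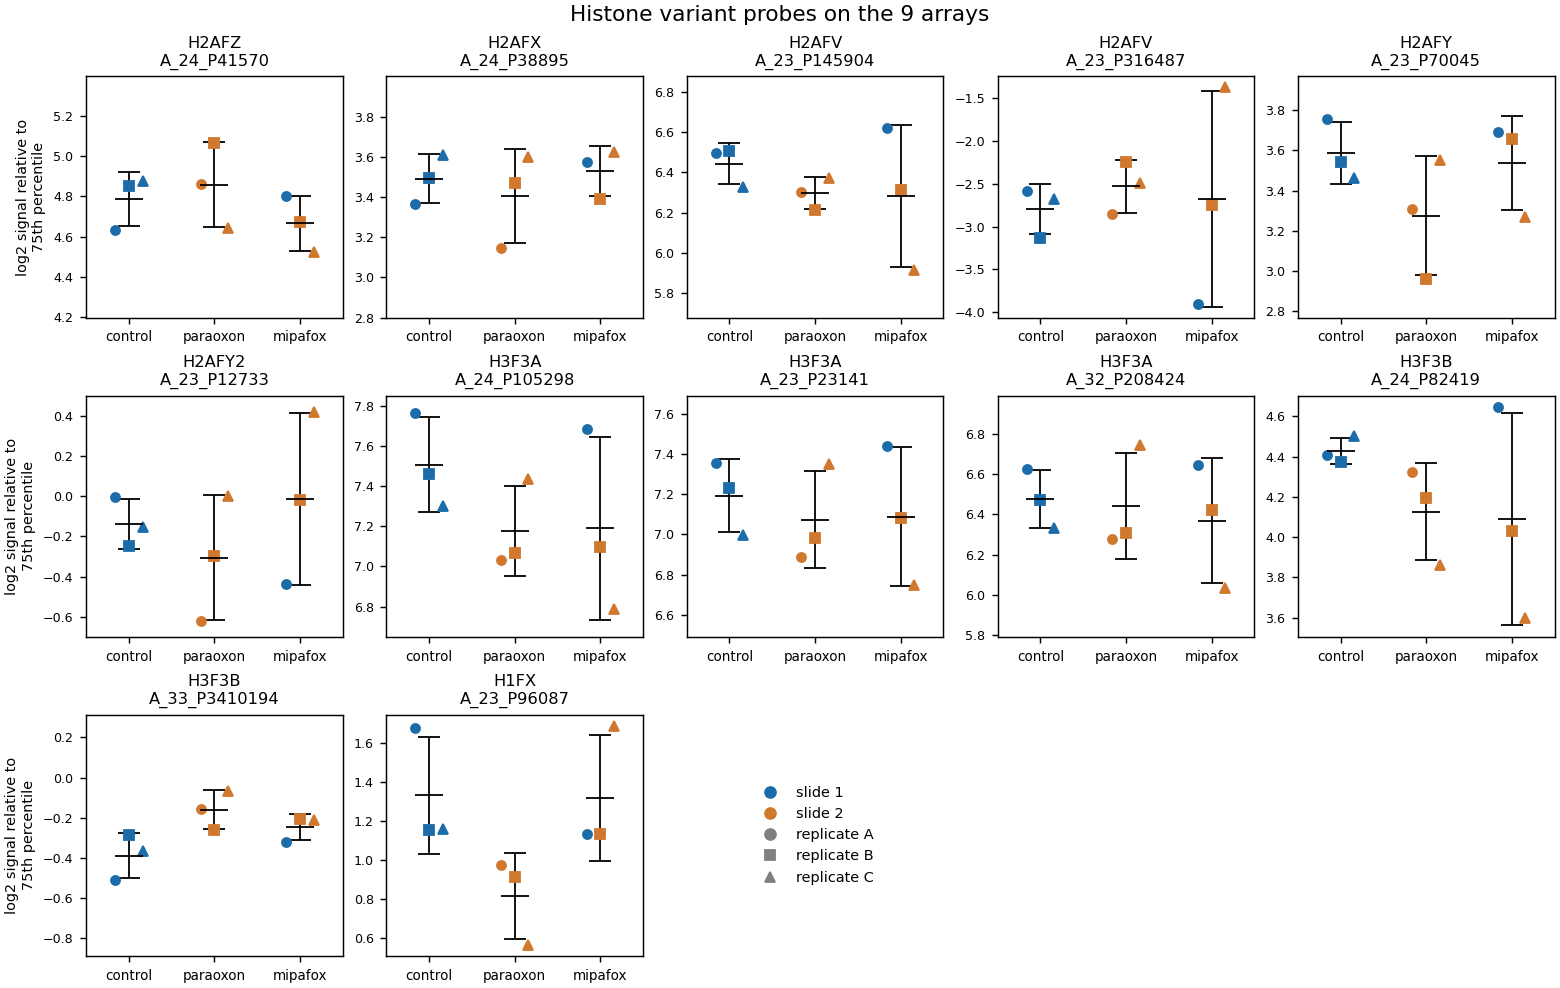
Normalized log2 signal of the 12 variant probes on each array, by treatment, with the mean and SD (n = 3) as bars, colors for the slide and symbols for the replicate letter; each panel has its own vertical range. The H1FX arrays of paraoxon lie below all others.

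Across the 29134 probes tested, limma called 0 (0%) at an adjusted p under 0.05 in each of the 3 comparisons, and 0 of the 12 variant probes. At an unadjusted p under 0.05, 1 variant probe passed for paraoxon against control (H1FX, lower; 13.3% of all probes passed), 0 for mipafox against control (6.96%) and 1 for paraoxon against mipafox (H1FX, lower; 4.02%). The 3 arrays of paraoxon lay wholly above or below the 3 control arrays for 3 variant probes, namely the dimmer H3F3B probe above and H1FX and the brighter H3F3B probe below, where 23.4% of all probes were so separated. For mipafox against control this held for 0 (11.8% of all probes), and for paraoxon against mipafox for H1FX alone (8.94%). A single probe of 12 is 8.33% and 3 of 12 are 25%, so the paraoxon shares of the variants stood near those of the whole array.

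The largest difference of the 8 genes was that of H1FX with paraoxon. H1FX encodes H1.X, a linker histone made outside replication. It read 1.68, 1.16 and 1.16 in the controls, 0.97, 0.91 and 0.57 with paraoxon and 1.13, 1.13 and 1.69 with mipafox. The paraoxon arrays lay below all 6 others, while the mipafox and control arrays overlapped. The paraoxon mean was 0.51 log2 below control (difference -0.51, SE 0.22, 95% interval -1.01 to -0.02, limma unadjusted p = 0.0423, adjusted p = 0.349), and mipafox differed from control by -0.01 (SE 0.22). Paraoxon and mipafox differed by -0.50 (SE 0.22, limma unadjusted p = 0.0469, adjusted p = 0.998), and by -0.59 among the 5 arrays of slide 2. The sign for paraoxon was the same with slide as a block (-0.79, SE 0.39, limma adjusted p = 0.617), a value that rests on mipafox A. The difference was smaller with array weights (-0.26) and without control A (-0.34), the highest control array.

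**Figure D2:**
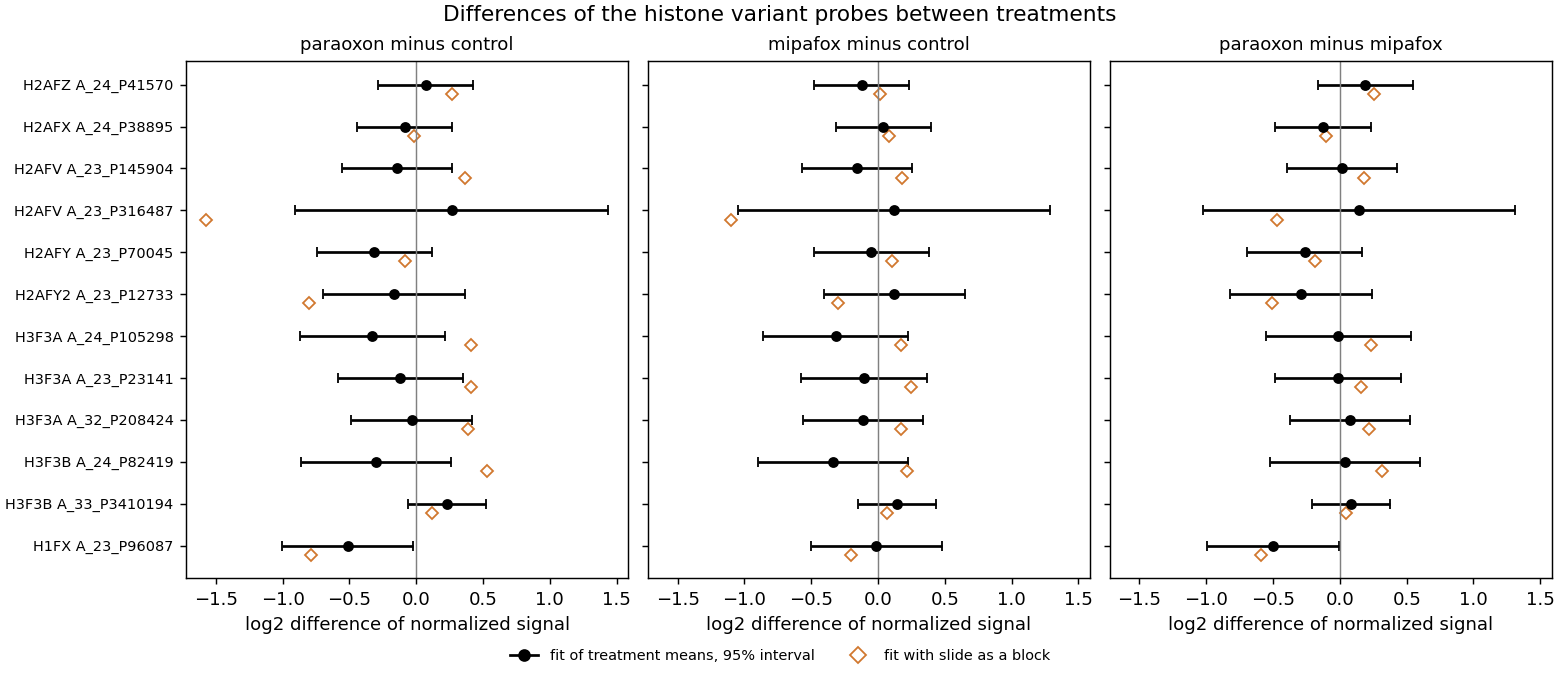
Log2 difference of each variant probe in the 3 comparisons with its 95% interval (black), and the same with slide as a block (open diamonds). The intervals are not adjusted for the number of probes. Those of H1FX for both paraoxon comparisons do not reach 0, with limma adjusted p = 0.349 against control and 0.998 against mipafox. Diamonds on the other side of 0 mark differences whose sign turned with the slide block.

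H3F3A and H3F3B encode the same protein, H3.3, the H3 form placed into chromatin at transcribed genes, promoters and telomeres outside replication. The brighter H3F3A coding probe shown above (A_24_P105298) read 7.76, 7.46 and 7.30 in the controls, 7.03, 7.07 and 7.44 with paraoxon and 7.68, 7.10 and 6.79 with mipafox. Its paraoxon difference was -0.33 and its mipafox difference -0.32 (SE 0.24 for both), with overlapping arrays. The other 2 H3F3A probes differed by less, -0.12 and -0.03 for paraoxon and -0.10 and -0.11 for mipafox. The 3 probes moved together over the 9 arrays (r from 0.87 to 0.96).

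The H3F3B probes did not move together. The coding one read 4.41, 4.37 and 4.50 in the controls, 4.33, 4.19 and 3.86 with paraoxon and 4.64, 4.03 and 3.60 with mipafox. The dimmer one (chr17:73772867-73772926, minus strand), listed for H3F3B alone, read -0.51, -0.29 and -0.37, then -0.15, -0.26 and -0.07, then -0.32, -0.21 and -0.21. Paraoxon arrays thus lay wholly below the controls on one probe and wholly above them on the other. The paraoxon differences were -0.30 (SE 0.25, adjusted p = 0.677) and 0.23 (SE 0.13, adjusted p = 0.502), and the correlation between the probes was -0.60 over the 9 arrays. With slide as a block, the coding probe turned to 0.53 and the other stayed positive at 0.12.

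H2AFZ and H2AFV encode the H2A.Z isoforms, which sit beside transcription start sites. H2AFZ, whose 60-base probe has only 28 bases in the interval the files give, chr4:100869240-100869267 (minus strand), read 4.63, 4.85 and 4.87 in the controls, 4.86, 5.07 and 4.64 with paraoxon and 4.80, 4.67 and 4.52 with mipafox. Its groups overlapped in all 3 comparisons, and its differences from control were 0.07 for paraoxon and -0.12 for mipafox (SE 0.16 for both).

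The brighter H2AFV probe (chr7:44873872-44873931, minus strand) read 6.50, 6.51 and 6.33 in the controls, 6.30, 6.21 and 6.37 with paraoxon and 6.62, 6.31 and 5.92 with mipafox, and differed by -0.15 and -0.16 (SE 0.18). The dimmer one (chr7:44867473-44867532, minus strand) read -2.58, -3.13 and -2.67, then -2.86, -2.24 and -2.49, then -3.90, -2.75 and -1.38. The mipafox arrays were its lowest and its highest, with A at the bottom and C at the top. Mipafox B and C together were 1.84 above mipafox A on this probe and 0.51 below it (-0.51) on the brighter one, and over the 9 arrays the probes correlated at -0.90. The dimmer probe thus set the widest interval of the 12, -0.90 to 1.43 for paraoxon against control.

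H2AFX encodes H2A.X, which is phosphorylated around DNA breaks. It read 3.37, 3.50 and 3.61 in the controls, 3.15, 3.47 and 3.60 with paraoxon and 3.58, 3.39 and 3.62 with mipafox, so all 3 groups overlapped. The differences were -0.09 and 0.04 (SE 0.16), and the 95% intervals, -0.44 to 0.27 and -0.32 to 0.40, leave room for differences of either sign.

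H2AFY and H2AFY2 encode the macroH2A histones, which carry a large extra domain and mark silent chromatin, including the inactive X. H2AFY (chr5:134670725-134670784, minus strand) read 3.76, 3.54 and 3.46 in the controls, 3.31, 2.96 and 3.55 with paraoxon and 3.69, 3.66 and 3.27 with mipafox. H2AFY2 (chr10:71871745-71871804, plus strand) read -0.004, -0.25 and -0.16, then -0.62, -0.30 and 0, then -0.44, -0.02 and 0.42. For both genes paraoxon C lay within or above the control range, and the groups overlapped. The paraoxon differences were -0.31 for H2AFY (SE 0.19, adjusted p = 0.545) and -0.17 for H2AFY2 (SE 0.24, adjusted p = 0.832). Those of mipafox were -0.05 and 0.12.

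As a group the 12 variant probes had a median difference of -0.13 for paraoxon against control (3 higher, 9 lower, range -0.51 to 0.27), -0.08 for mipafox against control (4 higher, 8 lower, range -0.34 to 0.14) and 0.0008 for paraoxon against mipafox (6 higher, 6 lower). Over all tested probes the medians were 0.01, 0.001 and 0.01. The 74 replication-dependent probes had medians of -0.57, -0.43 and -0.17, with 60, 60 and 58 of them lower. Single arrays carried these medians. The paraoxon median became -0.22 without control A, -0.94 without control C, -0.16 without paraoxon B and -1.01 without paraoxon C. The mipafox median turned to 0.21 without mipafox C and to 0.05 with array weights, and became -0.04 without control A, -0.77 without control C and -0.90 without mipafox A. That of paraoxon against mipafox turned to 0.22 without paraoxon B and to 0.27 without mipafox A, which leaves the arrays of slide 2 for this comparison, and became -0.52 without paraoxon C, -0.03 without mipafox B, -0.78 without mipafox C and -0.40 with array weights. Leaving out 1 array moved the variant medians less, to between -0.19 and -0.02 for paraoxon, -0.16 and -0.02 for mipafox and -0.13 and 0.10 for paraoxon against mipafox. The replication-dependent differences also reached further than those of the variants, for paraoxon from HIST1H4E (-1.53), HIST1H3B (-1.49) and HIST1H2BF (-1.43) to HIST1H2AA (0.59), HIST1H3J (1.02) and HIST1H4G (2.02). The HIST1H4G and HIST1H2AA probes were dim, with mean log2 levels of -5.30 and -4.52 over the 9 arrays. The dimmest variant probe, of H2AFV, stood at -2.67. For mipafox the replication-dependent differences ran from HIST1H3B (-1.40), HIST1H4E (-1.25) and HIST1H3D (-1.13) to HIST1H4J (0.41), HIST1H4K (0.59) and HIST1H4G (1.54). None passed the adjusted limit in limma (at an unadjusted p under 0.05, 13 did for paraoxon and 7 for mipafox, where 13.3% and 6.96% of all probes passed).

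**Figure D3:**
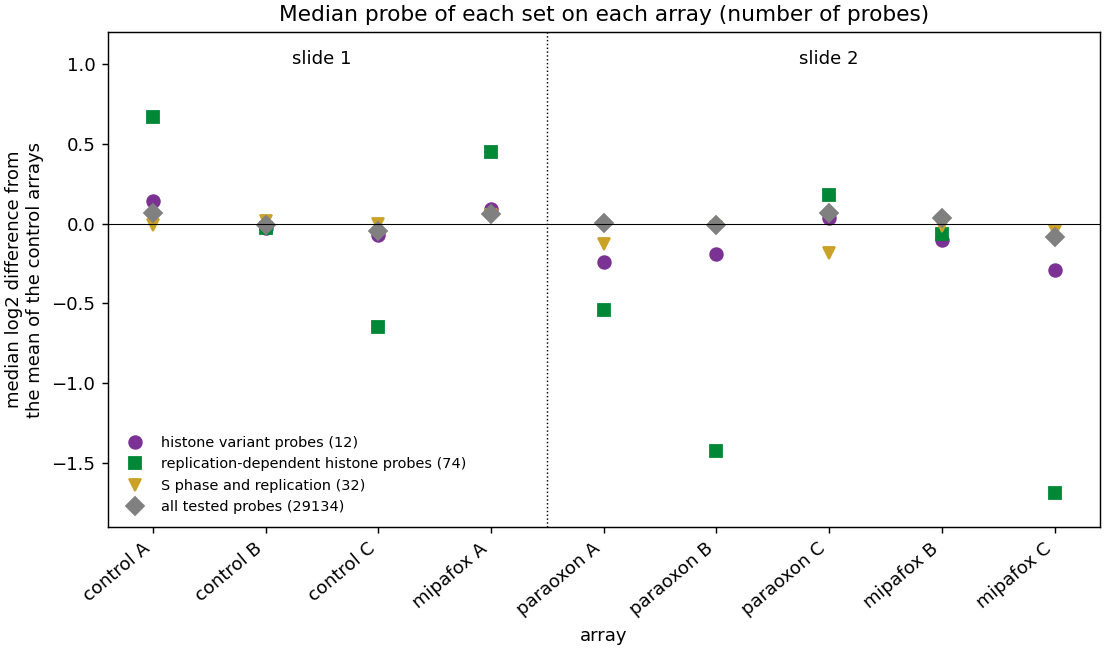
Median log2 difference from the control mean for the variant probes, the replication-dependent histone probes, the S phase and replication genes and all tested probes, on each array, ordered by slide. The replication-dependent median runs from 0.67 to -1.69 and the variant median from 0.14 to -0.29.

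Array by array, the classes had different spreads. Measured from the control mean, the median variant probe stood at 0.14, -0.02 and -0.07 in control A, B and C, at -0.24, -0.19 and 0.04 with paraoxon and at 0.09, -0.11 and -0.29 with mipafox. The median replication-dependent probe stood at 0.67, -0.03 and -0.65, at -0.54, -1.43 and 0.18, and at 0.45, -0.07 and -1.69. Within each treatment the replication-dependent histones thus covered at least 1.32 log2 and the variants at most 0.39, and arrays of the same treatment stood on both sides of the control mean. The median of the 32 probes of S phase and replication genes stayed between -0.18 and 0.06 over the arrays. With slide as a block the replication-dependent median turned from -0.57 to 0.69 for paraoxon and from -0.43 to 0.45 for mipafox, and the variant median from -0.13 to 0.19 and from -0.08 to 0.09. Each of these block values rests on mipafox A as the only treated array on the slide of the controls.

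The pooled SD within treatments had a median of 0.26 over the 12 variant probes (0.09 to 0.77), 0.86 over the 74 replication-dependent probes (0.15 to 2.21) and 0.25 over all tested probes. Among the 8920 tested probes at least as bright as the H2AFY2 probe, the dimmest of those that represent a variant gene, the median was 0.20, below that of the variants. Of the variant probes 6 lay above the median of all probes, and of the replication-dependent probes 69 did. The steadiest variant probe was the dimmer one of H3F3B (SD 0.09) and the least steady the dimmer one of H2AFV (0.77). H2AFZ and H2AFX had SDs of 0.16 and 0.17.

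**Figure D4:**
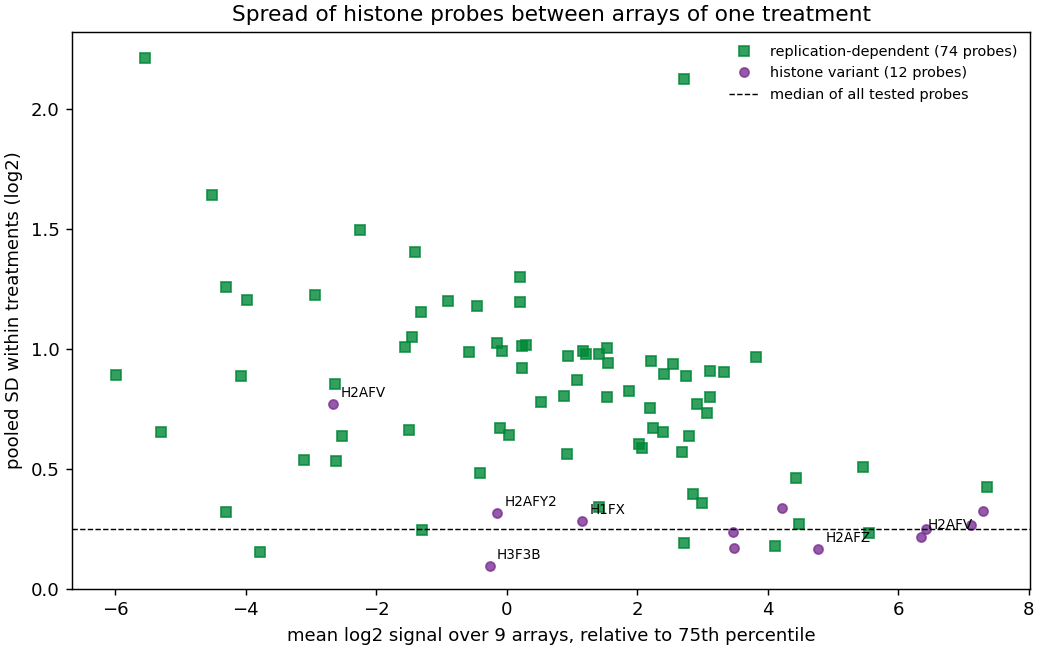
Pooled SD within treatments (log2) of each variant and replication-dependent histone probe against its mean signal over the 9 arrays, with the median of all tested probes as a dashed line at 0.25. All but 5 of the 74 replication-dependent probes lie above the line, and 6 of the 12 variant probes below it.

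Some variant probes followed the replication-dependent histones from array to array at a smaller scale. Over the 9 arrays, which share slides and processing and are not independent cultures by the study's methods, the correlation with the median replication-dependent probe was 0.88 to 0.89 for the 3 H3F3A probes (rho 0.88 to 0.93), 0.88 for the brighter H2AFV probe (rho 0.87) and 0.89 for H2AFY (rho 0.92). Without mipafox C and paraoxon B, the arrays farthest from the median, these were 0.83 to 0.91, 0.74 and 0.87 over 7 arrays, and within treatments 0.88 to 0.92, 0.88 and 0.96. The slopes were 0.24 to 0.35 for H3F3A, 0.22 for H2AFV and 0.28 for H2AFY, in log2 per log2 of the replication-dependent median. Deviations from the treatment means over all tested probes were also shared between some arrays. They correlated at 0.66 for control C with paraoxon B and for paraoxon B with mipafox C, and at -0.60 for paraoxon B with mipafox B. The share of all tested probes that follow this median as closely was not computed. Whether the relation is particular to histones was not tested.

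The remaining 7 probes had other patterns. The dimmer H2AFV probe ran the other way (r = -0.72, and -0.24 without those arrays). H3F3B's coding probe had r = 0.51, and 0.03 without them. H2AFZ, H2AFX, H2AFY2, H1FX and the dimmer H3F3B probe had r from -0.30 to -0.10. Without those arrays H2AFZ went to -0.68 and the dimmer H3F3B probe to -0.35, while H2AFX (0.19), H2AFY2 (0.36) and H1FX (0.35) changed sign, so the values of these genes rest on the arrays included. The shared runs with HIST1H3A and HIST1H3J shown above concern H3F3A only, and the third H3F3A probe, which shares no run of 15 bases with a replication-dependent probe, had the same r of 0.89; the part of shared sequence in the result was not tested.

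**Figure D5:**
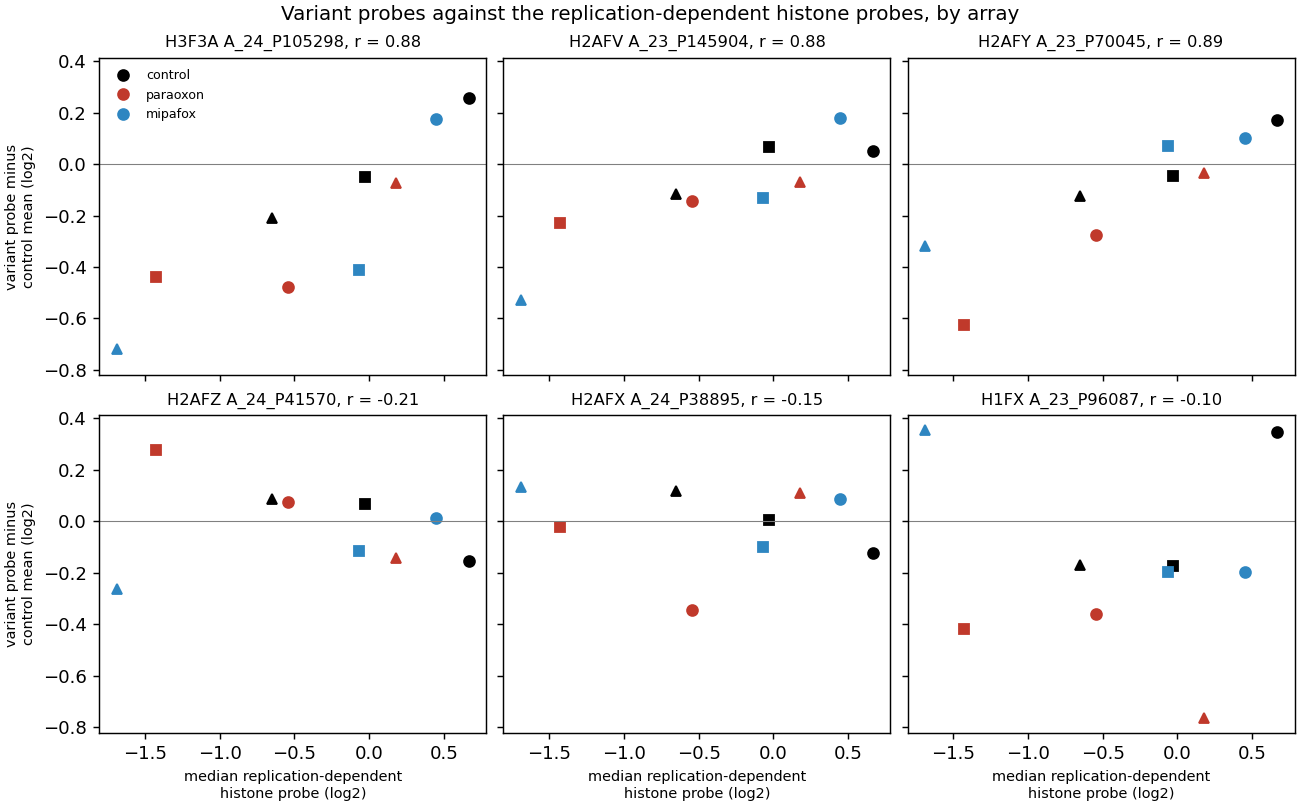
The 6 variant probes named in the panels, as log2 difference from their control mean against the median replication-dependent histone probe of the same array, colored by treatment, with symbols for the replicate letter (A circle, B square, C triangle). H3F3A, H2AFV and H2AFY follow the replication-dependent median (r = 0.88 to 0.89), while H2AFZ, H2AFX and H1FX have r between -0.21 and -0.10.

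The genes whose probes ran most like each variant were picked among 20488 probes by Pearson's r over the 9 arrays. For H2AFZ these were EAF2 (0.97) and DACH1 (0.96), for H2AFX NECAP2 (0.93) and FNTA (0.89), and for H2AFV INPP5F and EIF1 (0.99 each). For H2AFY they were SST (0.99) and LMO4 (0.98), for H2AFY2 GTF2IRD2 (0.96) and ABCC4 (0.95), and for H3F3A RAN and RPL6 (0.98 each). H3F3B had TCP11L1 (0.98) and CYB5D1 (0.97), and H1FX had C11orf80 and MAT2A (0.98 each). None of these was another variant gene, and each was the best of many compared.

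Genes that place, remove or modify the variants did not pass the adjusted limit in limma either. At an unadjusted p under 0.05, against which the counts below are given, 13.3% of all tested probes passed for paraoxon and 6.96% for mipafox. Each count below for paraoxon, except that of the mitosis genes, is a smaller share of its list than that. Of the 14 probes for H3.3 deposition, 1 passed for paraoxon, an ATRX probe (0.35, SE 0.13, adjusted p = 0.299), and DAXX, its partner at telomeres, read -0.33 (adjusted p = 0.418). For mipafox 1 passed, another ATRX probe that read -0.48 (limma adjusted p = 0.562), and CABIN1 of the HIRA complex read 0.38. The ATRX values belong to different probes under different compounds, so their signs are not compared. The ATRX probe that passed for mipafox differed by 0.43 (SE 0.16) between paraoxon and mipafox. It did not pass for paraoxon against control, so the paraoxon value of ATRX rests on 1 probe. Of the 22 probes for H2A.Z deposition and removal, 2 passed for paraoxon and none for mipafox. They were RUVBL2, a helicase of the exchange complexes (-0.50, adjusted p = 0.320), and INO80, the remodeler itself (-1.02, adjusted p = 0.358). With mipafox the leading genes were ANP32E, the H2A.Z chaperone (-0.50), and EP400 (0.41).

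Of the 23 probes for the H2A.X phosphorylation response, 2 passed at the unadjusted limit for paraoxon (13.3% of all probes) and 1 for mipafox (6.96%). RNF168, the ligase recruited to H2A.X-marked breaks, differed by -0.61 with paraoxon (adjusted p = 0.184) and -0.50 with mipafox (adjusted p = 0.609). PPP4C, a phosphatase that reverses the mark, differed by -0.37 with paraoxon, and EYA3 by -0.30 with mipafox. Of the 20 probes for processing of replication-dependent histone mRNA, 2 passed for paraoxon, LSM11 of the U7 particle (-0.79, adjusted p = 0.193) and CDK2 (-0.45, adjusted p = 0.243), and none for mipafox, where LSM11 (-0.46) and LSM1 (-0.22) led.

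Of the 11 probes of other histone variants, 3 of which (HIST1H1T, HIST1H2AA and HIST3H3) also counted among the 74 replication-dependent probes by their names, none passed in limma for any comparison, even unadjusted. The leading ones were HILS1 (-0.40) and HIST1H1T (-0.86) for paraoxon, and H2AFJ (0.41) and HILS1 (-0.19) for mipafox. CENPA, the centromeric H3, read 0.01 and -0.04, and SLBP, the stem-loop binding protein, 0.01 and 0.06. S phase and mitosis genes had medians of -0.07 and -0.05 for paraoxon and -0.005 and -0.001 for mipafox. Of the 32 S phase probes, 25 were lower with paraoxon and 16 with mipafox (14016 and 14520 of the 29134 tested probes). At the unadjusted limit 2 of them passed for paraoxon and 1 for mipafox. Of the 22 mitosis probes, 3 passed for paraoxon and 2 for mipafox (13.3% and 6.96% of all probes). None passed the adjusted limit. MCM7 (-0.80 and -0.59) and MKI67 (-0.63 and -0.68) were the leading genes for both compounds. MCM5 (-0.57) and PLK1 (-0.69) came next for paraoxon, and MCM2 (0.32) and another PLK1 probe (0.40) for mipafox. Embryonal carcinoma, neural progenitor, neuronal and retinoic acid response markers had medians of -0.11, -0.13, -0.07 and -0.09 for paraoxon and 0.06, -0.01, -0.03 and -0.01 for mipafox, and their part in the variant values was not tested. At the unadjusted limit 1 probe each of POU5F1 (-0.49), PAX6 (0.47) and HOXB1 (-0.84) passed for paraoxon, from lists of 12, 9 and 14 probes. For mipafox 1 probe each of VIM (-0.36) and HOXB1 (-0.66) passed, from lists of 9 and 14 probes. No marker passed the adjusted limit.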

How the data were processed

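Total RNA was labelled in a single color and hybridised to 9 Agilent arrays (58717 non-control spots). The authors deposited scanner intensity files from Agilent Feature Extraction 10.5.1.1 (processed signal with background subtracted, mean signal and local background) and a table of log2 values for 29527 probes, with medians of 8.35 to 8.41, whose scaling is not given in the sources used here and which served as an alternative. Here log2 processed signal minus the array's 75th percentile was used, without outlier-flagged spots and with a mean over each probe's spots. A probe was tested if all arrays of 1 treatment or more had it well above background and each treatment had 2 or more values, using limma 3.58.1 (R 4.3.3) with a mean per treatment and Benjamini-Hochberg adjustment over 29134 probes. The brightest probe represented a gene. Code was tested on simulated data. Replicate letters were not used as pairs in the main fit. Precision is limited by the number of arrays.

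The members and gene lists were chosen with earlier results of these data known. All member probes are named, and 1 further gene is not reported here. Of the replication-dependent histones the 3 largest and 3 smallest differences are named, and for each member the 2 most correlated genes. Of each gene list except the cell type markers, the 2 genes with the smallest unadjusted p are named for each compound against control. Of the cell type markers only those that passed the unadjusted limit against control are named. Gene names are those of the array files.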

Additional observations from a re-analysis of the deposited data

How the results depend on the processing

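No variant probe was called by limma at an adjusted p under 0.05 in the main analysis or in any alternative; an unadjusted limit gave 1 in each paraoxon comparison and 0 for mipafox against control. Over all 29134 probes the main count of 0 for paraoxon against control became 13 with median centring, 7 with normexp, 103 with mean signals, 1 with the slide block, 401 with only the treatments compared in the fit, 4035 with array weights, and 388, 95 and 1 without mipafox A, B and C; for mipafox it became 6 with the slide block, 5767 with array weights and 78 without mipafox A. The replicate letters showed no clear pairing of arrays. Same-letter deviations correlated at -0.60 to 0.57 (median 0.12, 5 of 9 over 0.1), and different-letter deviations at -0.59 to 0.66 (median 0.02, 7 of 18 over 0.1). The best match had its own letter in 7 of 18 cases. So few values cannot exclude pairing. The replicate block called 0 variant probes. It cannot change a difference, since every treatment holds every letter, so unchanged differences say nothing here. The authors' log2 values turned the variant median for paraoxon to 0.035, and slide as a block turned it to 0.19, that for mipafox to 0.094 and the replication-dependent medians to 0.69 for paraoxon and 0.45 for mipafox. These slide-block values, and those of single genes below, rest on mipafox A. Single genes turned sign as follows. With slide as a block, paraoxon gave 0.36 for H2AFV, 0.41 for H3F3A and 0.53 for H3F3B, and mipafox 0.012 for H2AFZ, 0.18 for H2AFV, 0.10 for H2AFY, -0.30 for H2AFY2, 0.18 for H3F3A and 0.22 for H3F3B. The authors' values gave 0.057 (H2AFV) and 0.013 (H3F3A) for paraoxon and 0.039 (H2AFV) for mipafox. Normexp and mean signals gave -0.0077 and -0.0086 for H2AFZ with paraoxon and -0.039 and -0.035 for H2AFX with mipafox. Array weights gave -0.091 (H2AFX) and 0.10 (H2AFY) with mipafox, the mean of both H2AFV probes 0.059 with paraoxon, and median centring 0.0074 for H1FX with mipafox. Leaving out one array gave -0.035 to 0.18 for H2AFZ and -0.18 to 0.044 for H2AFX with paraoxon, and with mipafox -0.022 to 0.11 for H2AFX, -0.33 to 0.023 for H2AFV, -0.13 to 0.086 for H2AFY, -0.093 to 0.34 for H2AFY2 and -0.20 to 0.16 for H1FX. The cause was not tested. The arrays of slide 2 alone, an alternative chosen after seeing the data, gave a variant median of 0.10 for paraoxon against mipafox and turned the replication-dependent median from -0.17 to 0.27. With 3 arrays a treatment, differences like those of most variants are within the spread.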
